A study of Mus musculus with 12 samples.

Results

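The genes described here are 42 cell cycle and DNA replication genes, chosen as a list of S phase and mitosis genes by name and not by any measured value, out of 55450 genes in the table. They were read in 12 RNA libraries from subcutaneous prostate tumors of C57BL/6 male mice implanted at 8 to 10 weeks with TC2R cells, the TRAMP-C2 mouse prostate adenocarcinoma line with an added activated H-ras gene. The study asked how interleukin-27 (IL-27) delivered as a gene, with or without interleukin-18 (IL-18) given afterwards, changes these tumors. Tumors were taken on day 26, and RNA of 4 to 6 tumors was combined for each library. The 6 groups have 2 libraries each. The IL-18 group carries only the label of IL-18 treatment, and the methods give recombinant IL-18 injected into the tumor on day 10. The methods list treatments as empty vector or IL-27 plasmid, each with or without IL-18. They do not name outright the plasmid of the IL-18 group. The IL-27 group received a plasmid for IL-27 with a non-specific peptide at its end, delivered to muscle with ultrasound (sonoporation) on day 4. The 27→18 group received that plasmid and then IL-18. The 27pepL group received a plasmid for IL-27 ending in a peptide that binds the interleukin 6 receptor alpha, and the 27pepL→18 group received it followed by IL-18. The pMCS group received the empty vector. All groups share the same transplanted line, so the differences are between treatments of 1 tumor model. No label says that the 2 libraries of a group came from separate sets of animals, so p-values reflect only how far libraries of 1 group differ, which could be technical spread.

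Cells copy their DNA in S phase and divide it in mitosis, and the genes for both are switched on in turn. E2F factors switch on the S phase set, among them the MCM helicase that unwinds DNA and the enzymes that make nucleotides. FOXM1 and MYBL2 take part in switching on the mitotic set, among them the kinases, motors and checkpoint proteins of the spindle. In a tumor these transcripts come mostly from dividing cells, of the tumor or of the tissue around it, and are widely read as a measure of how much division takes place. In whole-tumor RNA fewer dividing cells and less of the transcript per cell cannot be told apart.

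Short DNA words that cell cycle factors are known to read were searched in the promoters, and 4 promoters that hold such words are shown as examples, chosen for holding them, as the bases before the gene start that RefSeq gives (build GRCm38.p6), written 5′ to 3′ on the gene's strand. Capitals mark E2F words (TTTCCCGC, TTTCGCGC, TTTGCCGC or TTTGGCGC), cell cycle homology regions called CHR (TTTGAA or TTCGAA) and the CCAAT box, each searched on both strands in the 250 bases before the start, with overlapping matches both marked.
Mcm5 (chr8:75109259-75109508, + strand): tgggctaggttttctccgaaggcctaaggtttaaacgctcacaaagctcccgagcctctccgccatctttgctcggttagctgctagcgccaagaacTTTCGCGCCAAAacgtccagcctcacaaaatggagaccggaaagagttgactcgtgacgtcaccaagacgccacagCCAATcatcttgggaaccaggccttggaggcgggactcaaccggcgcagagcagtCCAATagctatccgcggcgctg
Cdc6 (chr11:98907901-98908150, + strand): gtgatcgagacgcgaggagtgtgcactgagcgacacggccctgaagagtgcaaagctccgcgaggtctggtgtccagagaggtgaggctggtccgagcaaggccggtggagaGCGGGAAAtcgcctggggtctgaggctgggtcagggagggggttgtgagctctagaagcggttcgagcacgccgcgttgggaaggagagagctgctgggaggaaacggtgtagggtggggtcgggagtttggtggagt
Mki67 (chr7:135716380-135716629, - strand): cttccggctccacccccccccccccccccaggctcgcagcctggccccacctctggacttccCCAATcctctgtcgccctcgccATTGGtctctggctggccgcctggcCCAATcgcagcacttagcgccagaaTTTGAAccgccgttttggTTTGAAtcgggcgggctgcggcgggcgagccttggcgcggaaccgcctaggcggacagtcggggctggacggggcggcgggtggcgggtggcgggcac
Cdc20 (chr4:118437344-118437593, - strand): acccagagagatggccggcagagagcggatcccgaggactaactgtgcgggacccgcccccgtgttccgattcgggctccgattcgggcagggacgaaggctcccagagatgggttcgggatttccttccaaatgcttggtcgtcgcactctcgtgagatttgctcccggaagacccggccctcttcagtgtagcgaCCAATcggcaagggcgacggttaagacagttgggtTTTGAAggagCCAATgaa
The S phase genes Mcm5 and Cdc6 hold E2F words, 2 overlapping ones in Mcm5 and 1 in Cdc6, and no CHR. The mitosis genes Mki67 and Cdc20 hold CHR words, 2 in Mki67 and 1 in Cdc20, beside 3 and 2 CCAAT boxes and no E2F word. Promoters were matched for 33 of the 42 genes, taking the start with the lowest coordinate for each gene. In GENCODE M21 Cdc6 starts earlier, at 98907801, so by that annotation the window shown for it lies inside the gene. Among the matched S phase genes 3 of 13 (23.1%) held an E2F word, and among the matched mitosis genes 1 of 18 (5.56%), where 1.96% of all 27025 promoters did. A CHR was found in 1 of 13 S phase promoters (7.69%), 8 of 18 mitosis promoters (44.4%) and 17.4% of all promoters. CCAAT was found in 8 of 13 (61.5%), 17 of 18 (94.4%) and 34.2% of all. Most S phase promoters thus held no E2F word, and the mitosis gene Ccnb1 held no CHR. The difference between the sets was not tested, and these are matches of letters, not measured binding sites.

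The libraries held 49844915 to 76620862 counts, and the 42 genes together took 0.301% to 0.539% of them. Values below are CPM, counts scaled to library depth, after TMM correction for libraries dominated by a few genes. All 42 genes passed the filter on low counts, which kept 20417 genes. The tumor label was checked against 12 markers of prostate epithelium. Pbsn was at 0 counts in all 12 libraries and Hoxb13 in 11, while Krt8 had 10.6 to 106 CPM and the mesenchymal gene Vim 1736 to 3249.6 CPM, so the prostate markers Pbsn and Hoxb13 were absent or nearly so. The libraries also differed in RNA of other tissues. The 10 hepatocyte markers summed to 206 to 332 CPM in all 6 libraries of the IL-18, IL-27 and pMCS groups and to at most 0.275 CPM in the other 6, and the 10 skeletal muscle markers to 176 and 56.3 CPM in 27→18 tumors and to at most 8.96 CPM elsewhere. Presence of hepatocyte RNA and treatment cannot be told apart in the comparisons of 27→18, 27pepL and 27pepL→18 tumors with pMCS or in the interaction of IL-18 with IL-27, and the pooled comparisons mix libraries with and without it. IL-27 replicate 1 stood furthest apart. All 9 adipocyte markers and 13 of 14 leukocyte markers had their highest value in it.

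Set against their length, the most abundant of the list was Pcna, the clamp that holds DNA polymerase on its template, with a median of 128 CPM per kilobase of exon. It was followed by the ubiquitin ligase partners of mitotic exit Ube2c (89.6) and Cdc20 (66.2), and by Ccnb2 (54.5), Cdk1 (51.9) and Ccna2 (51.0), all in CPM per kilobase. Lowest were Foxm1 (1.74), Cenpf (2.18) and Cdc25c (4.09). The list was about as steady between libraries as other genes of its abundance. The median ratio of highest to lowest library was 2.21 over the 42 genes, 2.40 over the 9016 genes in the same range of mean level and 4.14 over all genes tested. The median biological coefficient of variation, the spread that edgeR estimates between replicate libraries, was 0.302, 0.318 and 0.465 in the same order.

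No gene of the list changed in any comparison by the adjusted test. With edgeR's quasi-likelihood test and Benjamini-Hochberg adjustment over all genes, 0 of 42 passed an adjusted p of 0.05 in IL-18, IL-27, 27→18, 27pepL or 27pepL→18 tumors against pMCS, where 0%, 0%, 0.235%, 0.255% and 0.23% of all genes tested passed. By the study's own thresholds, an unadjusted p under 0.05 with a 2-fold change, 0 of 42 passed in the 5 comparisons, where 0.828%, 3.44%, 0.7%, 0.735% and 0.813% of all genes were higher and 1.65%, 0.784%, 1.61%, 2.54% and 2.16% lower. At an unadjusted p under 0.05 alone, 1 gene of the list passed in IL-27 tumors and 0 in the other 4 groups, against a background of 4.56% in IL-27 and 2.83%, 2.4%, 3.77% and 3.29% in IL-18, 27→18, 27pepL and 27pepL→18 tumors. The median log2 fold change of the list was -0.0019 in IL-18, -0.30 in IL-27, -0.019 in 27→18, -0.014 in 27pepL and -0.086 in 27pepL→18 tumors. Over all genes tested the same medians were -0.022, 0.0011, 0, -0.032 and -0.029. The number of genes within 0.5 of no change on the log2 scale was 35, 34, 38, 38 and 41 of 42 in that order, and 6982, 7037, 7855, 7312 and 7482 of the 9016 genes in the same range of mean level. The 95% interval of the fold change excluded a 2-fold or larger fall for 27, 14, 26, 27 and 23 of the 42 genes, so a 2-fold fall could not be set aside for the remaining members. The shares over those 9016 genes were 63.8%, 59.6%, 63.2%, 62.3% and 62.3%, so the list's share was far from them in IL-27 tumors, at 33.3%. These intervals reached a median of 0.84 on the log2 scale to either side in each comparison. All 5 comparisons share the same 2 pMCS libraries, so they are not independent readings of a gene.

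**Figure D1:**
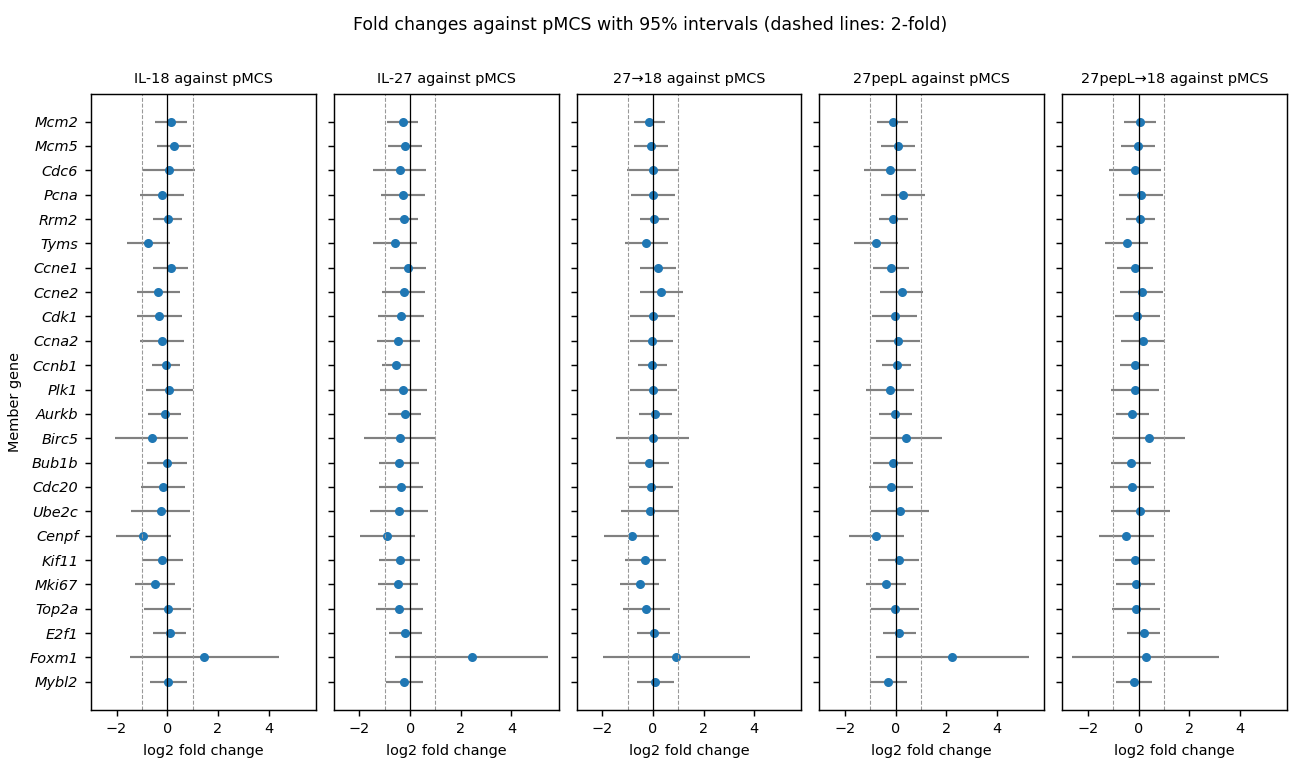
Log2 fold change (horizontal axis) of 24 cell cycle genes (rows) in each treated group against pMCS, 1 panel per treatment. Points are edgeR estimates from 2 libraries a group, bars are 95% intervals and dashed lines mark a 2-fold change. All intervals shown cross 0, the widest being those of Foxm1.

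In the licensing group, 9 genes that load and start the MCM helicase, 0 of 9 passed an unadjusted p of 0.05 against pMCS in any treated group. Mcm2, a subunit of the helicase ring, had 106 and 119.6 CPM in IL-18 tumors, 68.8 and 96.2 in IL-27, 105 and 78.2 in 27→18, 87.8 and 99.6 in 27pepL, 117 and 94.7 in 27pepL→18, against 96.3 and 107 in pMCS tumors. Mcm5, another subunit of the ring, had 162 and 148 CPM in IL-18 tumors, 98.2 and 123 in IL-27, 138 and 106 in 27→18, 130.2 and 142 in 27pepL, 108 and 146 in 27pepL→18, against 101 and 155 in pMCS tumors. Cdc6, which loads the ring onto replication origins, had 26.95 and 32.7 CPM in IL-18 tumors, 17.9 and 24.5 in IL-27, 37.0 and 20.3 in 27→18, 21.3 and 27.4 in 27pepL, 16.3 and 35.5 in 27pepL→18, against 21.1 and 35.5 in pMCS tumors. The lowest library for Mcm2 and Mcm5 was IL-27 replicate 1, and for Cdc6 it was 27pepL→18 replicate 1. The log2 fold changes of Mcm5 were 0.28 (SE 0.30) in IL-18, -0.21 (SE 0.30) in IL-27, -0.071 (SE 0.30) in 27→18, 0.091 (SE 0.30) in 27pepL and -0.014 (SE 0.30) in 27pepL→18 tumors. Over the 9 genes, the median was 0.15 in IL-18 tumors, with 8 above 0, and -0.29 in IL-27 tumors, with 8 below 0.

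Cdt1, the partner of Cdc6 in loading the helicase, was the least steady gene of this group and is named after its values were seen. It had 41.1 and 93.0 CPM in IL-18 tumors, 24.7 and 92.1 in IL-27, 36.7 and 30.6 in 27→18, 24.6 and 39.8 in 27pepL, 119 and 38.4 in 27pepL→18, against 19.5 and 40.9 in pMCS tumors. The high libraries were 1 each of the IL-18, IL-27 and 27pepL→18 groups, while their partner libraries held 41.1, 24.7 and 38.4 CPM. In IL-18 tumors both libraries lay above both pMCS libraries, and the other 4 treated groups overlapped pMCS. The fold change was 1.38 (SE 0.73) in 27pepL→18 tumors, with a 95% interval of -0.27 to 3.02. The predicted gene Gm20388, which lies over Cdt1 on the same strand, was at 0 counts in all 12 libraries.

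Genes of nucleotide supply and of the replication fork (5 genes) followed. Pcna had 312 and 216 CPM in IL-18 tumors, 177 and 331 in IL-27, 270.1 and 342 in 27→18, 472 and 279.6 in 27pepL, 366 and 290.0 in 27pepL→18, against 304 and 313 in pMCS tumors. Rrm2, the regulated subunit of ribonucleotide reductase, had 91.2 and 73.5 CPM in IL-18 tumors, 58.7 and 77.3 in IL-27, 81.0 and 88.1 in 27→18, 82.7 and 70.2 in 27pepL, 79.5 and 91.9 in 27pepL→18, against 78.1 and 84.6 in pMCS tumors and was the steadiest gene of the list, with a highest to lowest ratio of 1.57. Tyms, thymidylate synthase, which makes the thymidine nucleotide, had 68.1 and 52.5 CPM in IL-18 tumors, 49.2 and 85.2 in IL-27, 58.7 and 111 in 27→18, 63.6 and 54.4 in 27pepL, 84.5 and 62.1 in 27pepL→18, against 109 and 94.4 in pMCS tumors. In Tyms both libraries of the IL-18, IL-27, 27pepL and 27pepL→18 groups lay below both pMCS libraries, and in 27→18 1 library did and 1 did not. Its fold changes were -0.76 (SE 0.38), -0.60 (SE 0.38), -0.26 (SE 0.38), -0.79 (SE 0.38) and -0.47 (SE 0.38) in IL-18, IL-27, 27→18, 27pepL and 27pepL→18 tumors, and none passed, with unadjusted p of 0.0679 in 27pepL tumors by edgeR. The interval in 27pepL tumors was -1.64 to 0.071. Tk1, thymidine kinase, which salvages thymidine, is named after its values were seen as the gene of the list in which all 10 treated libraries lay below both pMCS libraries. It had 141 and 93.8 CPM in IL-18 tumors, 77.2 and 148 in IL-27, 134 and 145 in 27→18, 118 and 105 in 27pepL, 125 and 97.0 in 27pepL→18, against 155 and 153 in pMCS tumors. Among all genes tested 1.07% showed that order, and 1 of 42 members did. The antisense gene Gm20708, which overlaps Tk1, had 0 to 10.2 CPM, and the sources used here do not say whether counting used strand.

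The G1/S cyclins switch on the kinase that opens S phase. Ccne1 had 35.5 and 29.5 CPM in IL-18 tumors, 25.3 and 31.1 in IL-27, 27.5 and 41.0 in 27→18, 25.6 and 27.2 in 27pepL, 22.3 and 31.3 in 27pepL→18, against 26.2 and 33.4 in pMCS tumors. Ccne2 had 22.1 and 17.4 CPM in IL-18 tumors, 16.4 and 26.1 in IL-27, 23.3 and 39.8 in 27→18, 36.4 and 23.4 in 27pepL, 30.4 and 24.7 in 27pepL→18, against 24.0 and 26.5 in pMCS tumors. For both genes 27→18 replicate 2 was the highest library. Both IL-18 libraries lay below both pMCS libraries in Ccne2, and Ccne1 overlapped pMCS in every group.

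**Figure D2:**
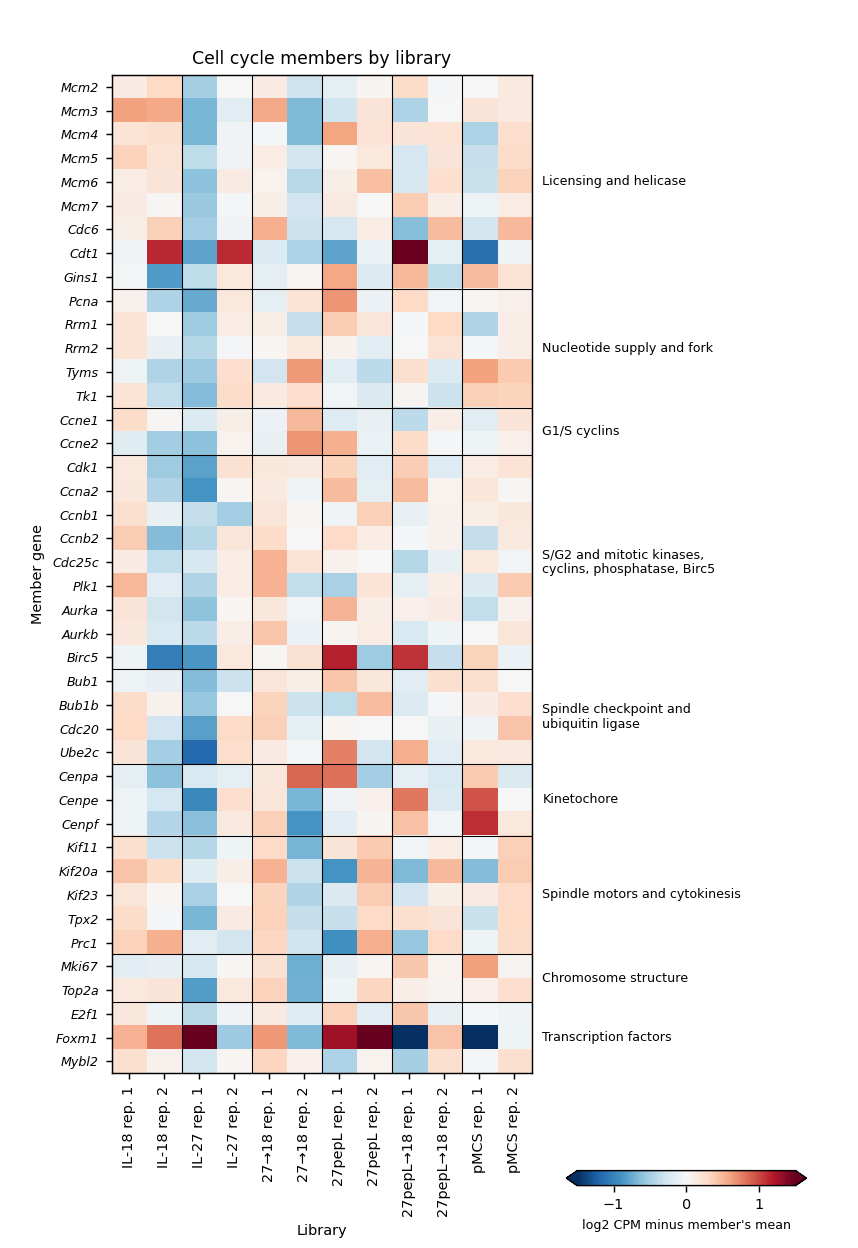
Each cell is a gene's log2 CPM in 1 library minus that gene's mean over the 12 libraries, with 42 genes as rows grouped by role and libraries as columns, treated groups left of pMCS. IL-27 replicate 1 is the lowest library for 25 of the 42 genes, and Foxm1 and Cdt1 are the rows with the widest range, 102-fold and 6.08-fold.

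The kinases, cyclins and phosphatase of S/G2 and mitosis, with the chromosomal passenger Birc5, make a group of 9 genes. Cdk1, the kinase that starts mitosis, had 258 and 159.7 CPM in IL-18 tumors, 132 and 273 in IL-27, 260.0 and 254 in 27→18, 293 and 207 in 27pepL, 298 and 202 in 27pepL→18, against 251 and 267 in pMCS tumors. Ccna2, its S and G2 phase cyclin, had 228 and 149 CPM in IL-18 tumors, 109 and 207 in IL-27, 225 and 195 in 27→18, 281 and 184 in 27pepL, 281 and 209 in 27pepL→18, against 229.7 and 206 in pMCS tumors. Ccnb1, its mitotic cyclin, had 82.3 and 64.8 CPM in IL-18 tumors, 54.6 and 49.1 in IL-27, 79.0 and 71.4 in 27→18, 67.2 and 89.4 in 27pepL, 64.7 and 73.2 in 27pepL→18, against 74.8 and 78.3 in pMCS tumors. In Ccnb1 both IL-27 libraries lay below all other libraries of the series. That difference had a fold change of -0.56 (SE 0.25), with a 95% interval of -1.13 to 0.0056 and an unadjusted p of 0.0519 by edgeR, and it did not pass. Plk1, the kinase of spindle poles and mitotic entry, had 94.5 and 59.6 CPM in IL-18 tumors, 49.0 and 72.7 in IL-27, 96.3 and 52.2 in 27→18, 47.8 and 77.7 in 27pepL, 61.1 and 71.7 in 27pepL→18, against 58.2 and 88.4 in pMCS tumors. Aurkb, the kinase that corrects the attachment of chromosomes, had 64.9 and 49.0 CPM in IL-18 tumors, 43.8 and 61.8 in IL-27, 76.9 and 54.0 in 27→18, 59.1 and 62.3 in 27pepL, 49.2 and 55.0 in 27pepL→18, against 57.4 and 65.5 in pMCS tumors. Plk1 overlapped pMCS in every treated group, and Aurkb in all but 27pepL→18, where both libraries lay below both pMCS libraries. Birc5, survivin, which sits with Aurkb at the centromere, had 143 and 74.3 CPM in IL-18 tumors, 82.1 and 169 in IL-27, 152 and 176 in 27→18, 335 and 104 in 27pepL, 319 and 118 in 27pepL→18, against 191 and 141 in pMCS tumors. Its high libraries were replicate 1 of 27pepL and of 27pepL→18, which lay above both pMCS libraries, while the partner library of each lay below both. Across the 9 genes the median log2 fold change was -0.11 in IL-18, -0.27 in IL-27, 0.019 in 27→18, 0.032 in 27pepL and -0.049 in 27pepL→18 tumors, and all 9 lay below 0 in IL-27 tumors.

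The spindle checkpoint and the ubiquitin ligase it restrains were read by 4 genes. Bub1b, which holds the checkpoint, had 98.1 and 85.1 CPM in IL-18 tumors, 54.8 and 80.6 in IL-27, 102 and 64.7 in 27→18, 62.3 and 112 in 27pepL, 70.3 and 79.1 in 27pepL→18, against 88.5 and 96.7 in pMCS tumors. Cdc20, the activator of the ligase that ends metaphase, had 152 and 102 CPM in IL-18 tumors, 70.6 and 151 in IL-27, 158 and 113 in 27→18, 127 and 123 in 27pepL, 124 and 115 in 27pepL→18, against 119.6 and 167 in pMCS tumors. Ube2c, the enzyme that hands ubiquitin to that ligase, had 242 and 149.8 CPM in IL-18 tumors, 94.4 and 255 in IL-27, 231 and 208 in 27→18, 358 and 175 in 27pepL, 309 and 189 in 27pepL→18, against 237 and 235 in pMCS tumors. IL-27 replicate 1 was the lowest library in all 3, while IL-27 replicate 2 lay inside the pMCS range in Cdc20 and above it in Ube2c. Bub1, a kinase of the checkpoint, was the 1 gene past an unadjusted p of 0.05 against pMCS. It had 38.5 and 37.4 CPM in IL-18 tumors, 25.8 and 32.4 in IL-27, 46.1 and 43.5 in 27→18, 54.2 and 45.7 in 27pepL, 36.4 and 48.0 in 27pepL→18, against 48.1 and 40.6 in pMCS tumors. Both IL-27 libraries lay below the 2 pMCS libraries, with a fold change of -0.61 (SE 0.26), an interval of -1.20 to -0.019 and an unadjusted p of 0.0444, which is an adjusted p of 1 with edgeR. Against 0 of 20417 genes past the adjusted threshold and 4.56% past the unadjusted one, 1 of 42 is not a result about the list. Other fits moved the count of the list in IL-27 tumors both ways. It was 3 with the transcript length trend, 3 without the filter on low counts and 3 with DESeq2, where 5.31%, 7.5% and 7.43% of all genes passed. The count past the unadjusted threshold was 0 with the compared groups alone, with edgeR's exact test, with muscle and adipocyte covariates, and without pMCS replicate 1 or any 1 library of the IL-18, 27→18 or 27pepL groups.

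Among the kinetochore, motor and chromosome genes the pMCS libraries themselves differed. Cenpf, a large kinetochore protein that peaks in G2, had 32.2 and 24.8 CPM in IL-18 tumors, 21.7 and 37.3 in IL-27, 43.2 and 18.1 in 27→18, 29.9 and 34.6 in 27pepL, 45.8 and 32.6 in 27pepL→18, against 72.4 and 37.5 in pMCS tumors. Cenpe, the kinetochore motor, is named after its values were seen and had 77.8 and 68.2 CPM in IL-18 tumors, 42.2 and 98.0 in IL-27, 93.2 and 51.1 in 27→18, 79.1 and 86.6 in 27pepL, 142 and 71.4 in 27pepL→18, against 159 and 82.3 in pMCS tumors. Mki67, the Ki-67 antigen that coats mitotic chromosomes and is counted in pathology, had 99.8 and 102 CPM in IL-18 tumors, 92.9 and 113 in IL-27, 130.3 and 67.2 in 27→18, 103 and 114 in 27pepL, 147 and 116 in 27pepL→18, against 171 and 114 in pMCS tumors. All 3 had their highest value in pMCS replicate 1, the library with the largest share of counts from mitochondrial genes (8.09%, against 4.21% in pMCS replicate 2), whose part in this was not tested, and the fold changes against pMCS were below 0 in all 5 groups, from -0.95 to -0.49 for Cenpf and from -0.53 to -0.12 for Mki67. For Mki67 they were -0.50 (SE 0.35) in IL-18, -0.47 (SE 0.35) in IL-27, -0.53 (SE 0.35) in 27→18, -0.40 (SE 0.35) in 27pepL and -0.12 (SE 0.35) in 27pepL→18 tumors. Kif11, the motor that pushes spindle poles apart, had 73.8 and 50.3 CPM in IL-18 tumors, 46.6 and 59.8 in IL-27, 76.7 and 38.7 in 27→18, 71.6 and 82.3 in 27pepL, 61.0 and 67.8 in 27pepL→18, against 61.7 and 80.4 in pMCS tumors. Top2a, which untangles sister chromosomes, had 436 and 446 CPM in IL-18 tumors, 218 and 433 in IL-27, 496 and 236 in 27→18, 373 and 486 in 27pepL, 416 and 399.7 in 27pepL→18, against 410.5 and 464 in pMCS tumors. In Top2a 10 of the 12 libraries held 373 to 496 CPM, and the low libraries were IL-27 replicate 1 and 27→18 replicate 2. Kif20a and Prc1, which act in the last step of division, had their lowest level in 27pepL replicate 1, at 38.8 and 18.6 CPM. The partner library, 27pepL replicate 2, held 103 and 51.5 CPM, the highest level of Prc1 in the series. Their log2 fold changes in 27pepL tumors against pMCS were 0.016 and -0.12.

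The transcription factors of the list split into 2 steady genes and 1 that was not. E2f1, a factor that switches on S phase genes, had 69.2 and 58.9 CPM in IL-18 tumors, 46.0 and 59.4 in IL-27, 67.5 and 54.3 in 27→18, 78.1 and 54.8 in 27pepL, 81.3 and 56.8 in 27pepL→18, against 60.8 and 59.2 in pMCS tumors. Mybl2, which acts on late S phase and mitotic genes, had 67.1 and 59.6 CPM in IL-18 tumors, 47.0 and 58.2 in IL-27, 71.4 and 60.2 in 27→18, 41.2 and 59.3 in 27pepL, 40.4 and 67.4 in 27pepL→18, against 55.7 and 67.0 in pMCS tumors. Foxm1, the forkhead factor of the mitotic genes, had 10.3 and 12.6 CPM in IL-18 tumors, 39.9 and 4.92 in IL-27, 11.3 and 4.52 in 27→18, 17.4 and 22.0 in 27pepL, 0.39 and 9.69 in 27pepL→18, against 1.44 and 6.88 in pMCS tumors. Those libraries span 102-fold, where Cdt1 spans 6.08-fold and the other 40 genes 1.57-fold to 4.52-fold. In counts the extremes were 20 in 27pepL→18 replicate 1 and 2238 in IL-27 replicate 1, while their partner libraries held 798 and 265. In IL-18 and 27pepL tumors both libraries lay above both pMCS libraries, and in IL-27, 27→18 and 27pepL→18 tumors they overlapped pMCS. The log2 fold changes were 1.46 (SE 1.31), 2.43 (SE 1.35), 0.92 (SE 1.29), 2.24 (SE 1.34) and 0.28 (SE 1.29) in IL-18, IL-27, 27→18, 27pepL and 27pepL→18 tumors, and the interval in 27pepL tumors was -0.77 to 5.25. The adjusted p was 1 in each of the 5 comparisons with edgeR. Without the filter on low counts, when 1 to 2 of the 42 genes pass in some comparisons, its adjusted p in the same test was 0.0019 in IL-27 and 0.0074 in 27pepL tumors. Genes known as targets of FOXM1, such as Ccnb1, Plk1, Aurkb and Cenpf, spanned 1.82-fold, 2.02-fold, 1.75-fold and 4.00-fold over the same libraries, and Birc5 of the mitosis set spanned 4.52-fold. A span has no direction, and whether these genes followed Foxm1 was not tested. No promoter of Foxm1 was matched. Its neighbour Rhno1 had 11.3 to 34.8 CPM.

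**Figure D3:**
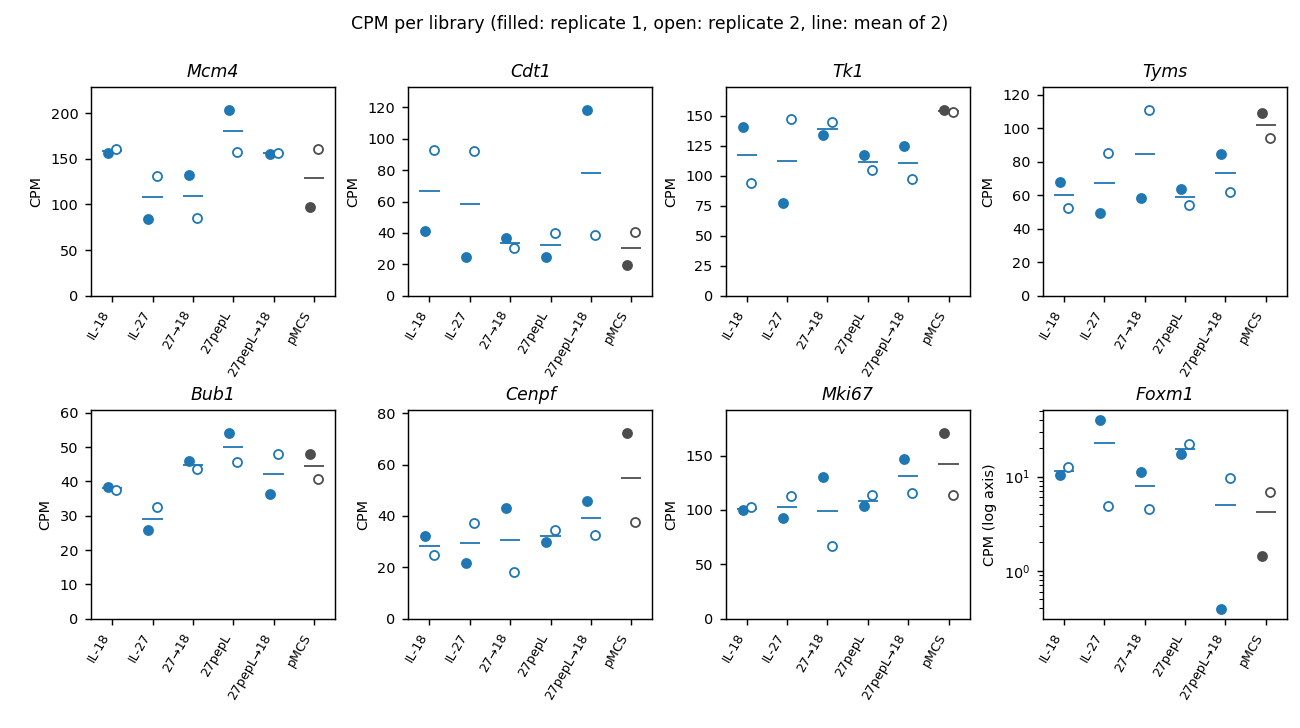
CPM in each library (vertical axis, logarithmic for Foxm1) for 8 genes by group, treated groups left of pMCS. Filled points are replicate 1, open points replicate 2 and short lines the mean of the 2. Tk1 is the gene whose 10 treated libraries all lie below both pMCS libraries, and the 2 libraries of the IL-27 group hold 39.9 and 4.92 CPM of Foxm1.

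Among the 5 comparisons with pMCS, that of IL-27 tumors was the one in which nearly the whole list lay to 1 side, and the size of the shift rested largely on 1 library. In IL-27 tumors 39 of 42 genes were below pMCS on the log2 scale, with the kinetochore group lowest (median -0.78, 3 genes) and only Cdt1, Foxm1 and Kif20a above 0. Both IL-27 libraries lay below both pMCS libraries for 14 genes and above them for 0, where 11.6% and 10.7% of all genes tested did. IL-27 replicate 1 was below the gene's own mean over all libraries for 41 of 42 genes, by a median of 0.54 on the log2 scale, and IL-27 replicate 2 was above it by 0.071. The medians of the other 10 libraries ran from -0.23 to 0.18. The list summed to 2801 CPM in IL-27 replicate 1 and to 3891 to 5019 CPM elsewhere. Without IL-27 replicate 1 the median log2 fold change against pMCS was -0.013, with 21 genes above and 21 below 0. Without IL-27 replicate 2 it was -0.62, with 41 genes below 0, and 7 genes passed an unadjusted p of 0.05 with a 2-fold change. Without pMCS replicate 2 the median was -0.15, with 29 genes below 0. The 7 genes were Tyms, Tk1, Ccna2, Cdc20, Ube2c and Cenpe below pMCS and Foxm1 above, and none passed an adjusted p, which lay between 0.251 and 0.349 with edgeR. Only IL-27 replicate 1 was left for that group in the fit without IL-27 replicate 2, and its spread was taken from the other groups.

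Other tissue and the mitochondrial share moved with that library. Mitochondrial genes took 7.26% of counts in IL-27 replicate 1, against 3.26% in IL-27 replicate 2, 8.09% in pMCS replicate 1 and 1.37% to 4.36% in the other 9 libraries. The 9 adipocyte markers summed to 11197 CPM in IL-27 replicate 1, against 1107 CPM in pMCS replicate 2 and 48.1 to 339 CPM in the remaining libraries. In pMCS replicate 2 the genes of the list lay above their own means by a median of 0.16 on the log2 scale. The 14 leukocyte markers summed to 3273 CPM in IL-27 replicate 1, against 365 to 1257 CPM elsewhere. No adipocyte or leukocyte marker was at 0 in IL-27 replicate 1. Adipoq, the defining adipocyte hormone, had 765 CPM in IL-27 replicate 1 and 0.761 in IL-27 replicate 2, and Ptprc, the pan-leukocyte antigen CD45, had 175 and 9.58. The part of this tissue or of the mitochondrial share in the lower list of IL-27 replicate 1 was not tested. With muscle and adipocyte marker levels as covariates in the fit, the list's median in IL-27 tumors was -0.26. Foxm1 ran the other way from the rest of the list, with its highest value in that same library.

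**Figure D4:**
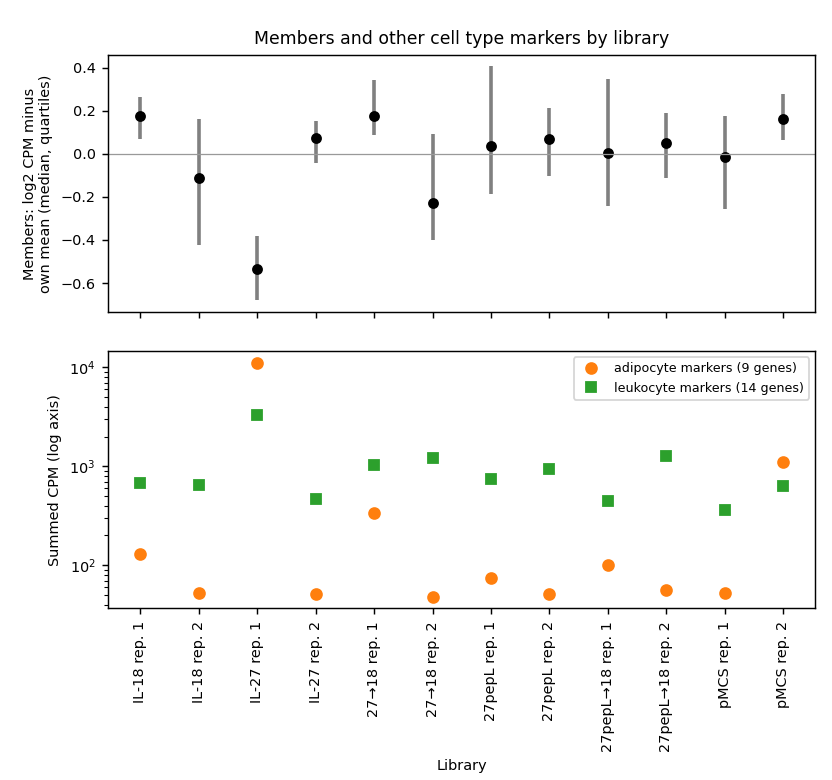
Top, the median (point) and quartiles (bar) over the 42 genes of log2 CPM minus each gene's own mean, per library. Bottom, summed CPM of 9 adipocyte and 14 leukocyte markers on a log axis. IL-27 replicate 1 has the lowest point, -0.54, and the highest marker sums, 11197 and 3273 CPM.

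In the remaining groups the list was centred near pMCS in the fit of all 12 libraries, though not under every alternative. In IL-18 tumors 21 genes were above and 21 below 0, with S phase genes at a median of 0.094 and mitosis genes at -0.16, and both libraries lay above both pMCS libraries for 4 genes and below for 8, where 19.3% and 19.4% of all genes did. In 27→18 tumors 18 were above and 24 below 0, with 1 gene fully above and 3 fully below, at backgrounds of 12.3% and 11.5%. In 27pepL tumors 20 were above and 22 below 0, with 3 fully above and 4 fully below, at 13.5% and 14.6%. In 27pepL→18 tumors 17 were above and 25 below 0, with 1 fully above and 8 fully below, at 14.1% and 15%. With muscle and adipocyte covariates the median was -0.78 in 27→18 tumors, with 34 of 42 genes below 0, and -0.26 in 27pepL→18 tumors, with 32 below. The muscle markers were high in 27→18 libraries alone, so that group and muscle RNA cannot be told apart. Without pMCS replicate 1, 35 of 42 genes were below 0 in IL-18 tumors (median -0.13) and 32 in 27→18 tumors (median -0.17). Without pMCS replicate 2, 31 of 42 were above 0 in 27pepL tumors (median 0.11), and 27, 26 and 27 in IL-18, 27→18 and 27pepL→18 tumors. Without IL-18 replicate 1, 30 of 42 were below 0 in IL-18 tumors. The lowest and highest log2 fold changes were -0.95 (Cenpf) and 1.46 (Foxm1) in IL-18, -0.84 (Cenpf) and 0.92 (Foxm1) in 27→18, -0.79 (Tyms) and 2.24 (Foxm1) in 27pepL, and -0.49 (Cenpf) and 1.38 (Cdt1) in 27pepL→18 tumors.

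The question of whether IL-18 moved these genes can be read over 6 libraries against 6. For the 3 groups with IL-18 against the 3 without it, the list's median was 0.033, with 26 genes above and 16 below 0, and 0 of 42 passed an adjusted p of 0.05, as did 0 of 20417 genes with edgeR. The direction of the list turned with muscle and adipocyte covariates, to a median of -0.24 with 9 genes above and 33 below 0. At an unadjusted p under 0.05 the counts were 0 of 42 and 2.1% of all genes, and with a 2-fold change as well 0 of 42, at 0.5% higher and 1.07% lower. All 6 libraries with IL-18 lay above, or below, all 6 without it for 0 of 42 genes, and for 0.0392% of all genes in each direction. The interval lay inside a 2-fold change either way for 40 of the 42 genes, the exceptions being Foxm1 and Cdt1, against 83.0% of the 9016 genes in the same range of level. For Mki67 it ran from -0.54 to 0.36, and for Cdk1 from -0.51 to 0.53.

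The targeting peptide was read over 4 libraries against 4. For the 2 groups with 27pepL against the 2 with IL-27, the list's median was 0.18, with 31 genes above and 11 below 0, where the median of all genes was -0.087. No gene of the list passed an adjusted p of 0.05 with edgeR, and neither did any other gene. At an unadjusted p under 0.05, 1 of 42 passed and 4.97% of all genes did, and with a 2-fold change as well 0 of 42, at 0.544% higher and 2.76% lower. That gene was Mcm4, another helicase subunit, named after its values were seen. It had 156 and 160.2 CPM in IL-18 tumors, 84.5 and 131 in IL-27, 132 and 85.6 in 27→18, 204 and 157 in 27pepL, 156 and 157 in 27pepL→18, against 97.4 and 161 in pMCS tumors. All 4 libraries with 27pepL lay above all 4 with IL-27, an order shown by 1.76% of all genes, and the opposite order was shown by 0 of 42 and by 2.13% of all genes. Its fold change was 0.63 (SE 0.25), with an interval of 0.074 to 1.19, an unadjusted p of 0.0304 and an adjusted p of 0.898 with edgeR. Without IL-27 replicate 1 the list's median was 0.072, and without IL-27 replicate 2 it was 0.33.

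Whether IL-18 acted differently after a plasmid was tested as an interaction, the effect of IL-18 after IL-27 or after 27pepL minus its effect after pMCS. The label of the IL-18 group names no plasmid, so its effect after pMCS means here the IL-18 group against the pMCS group. None of the 42 genes passed an adjusted p of 0.05 in either, where 0.147% and 0% of all genes did by edgeR. At an unadjusted p under 0.05, Bub1 passed after IL-27 and no gene after 27pepL, at backgrounds of 3.74% and 2.37%. With a 2-fold difference as well the count was 0 of 42 in both, at 1.48% higher and 2.21% lower of all genes after IL-27 and 1.6% higher and 0.764% lower after 27pepL. After IL-27 that count was 6 without IL-27 replicate 2, and the count past the unadjusted threshold alone was 0 without either library of the IL-18, 27pepL→18 or pMCS groups. After IL-27 the list's median was 0.31, with 34 genes above 0, and without IL-27 replicate 1 it was 0.063 with 24 above 0. Without 27→18 replicate 1 it was 0.040 with 22 above 0, and without pMCS replicate 2 it was 0.12 with 26 above 0. With muscle and adipocyte covariates the direction turned, to a median of -0.63 with 13 above and 29 below 0. After 27pepL it was -0.0040, with 21 above and 21 below. The test of any difference among the 6 groups gave a smallest unadjusted p of 0.163 over the 42 genes with edgeR, where 3.36% of all genes were under 0.05 and 0.269% passed after adjustment.

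A wider list of 103 other genes of replication and mitosis also held no gene that passed. In every comparison 0 of 103 had an adjusted p under 0.05 by edgeR. The medians were -0.14 in IL-18, -0.34 in IL-27, -0.068 in 27→18, 0.024 in 27pepL and -0.12 in 27pepL→18 tumors. In IL-27 tumors 99 of 103 were below 0, where 10126 of 20417 genes tested were. That comparison holds the same IL-27 replicate 1, and the wider list was not refitted without it. Past an unadjusted p of 0.05 against pMCS were 2 genes in IL-27 tumors and 1 in 27→18 tumors, all below pMCS, where 4.56% and 2.4% of all genes tested passed. The 2 in IL-27 tumors were Dtl, which marks replication proteins for destruction, with 32.6 and 31.9 CPM in IL-18 tumors, 17.6 and 29.7 in IL-27, 36.6 and 23.7 in 27→18, 47.0 and 41.7 in 27pepL, 41.3 and 29.0 in 27pepL→18, against 45.9 and 39.5 in pMCS tumors, and Pola1, the DNA polymerase alpha that primes synthesis, with 51.8 and 60.9 CPM in IL-18 tumors, 29.2 and 48.9 in IL-27, 56.2 and 33.1 in 27→18, 50.1 and 65.6 in 27pepL, 51.7 and 54.7 in 27pepL→18, against 88.0 and 55.7 in pMCS tumors. The 1 in 27→18 tumors was Cep55, needed for the final cut between daughter cells, with 17.7 and 19.6 CPM in IL-18 tumors, 33.3 and 20.7 in IL-27, 19.1 and 12.9 in 27→18, 42.2 and 22.7 in 27pepL, 24.1 and 17.3 in 27pepL→18, against 29.2 and 36.9 in pMCS tumors. Cep55 was also the gene with the smallest p for the 3 groups with IL-18 against the 3 without, with a log2 fold change of -0.74 (SE 0.23), an unadjusted p of 0.0100 and an adjusted p of 0.9999 by edgeR. All 6 libraries with IL-18 lay at or below 24.1 CPM, while those without it ran from 20.7 to 42.2 CPM. For the 2 groups with 27pepL against the 2 with IL-27, 4 of 103 passed an unadjusted p of 0.05, all higher, where 4.97% of all genes did. They were Stmn1, which destabilizes microtubules, with a log2 fold change of 0.95 (SE 0.35), Ncapg2, a condensin subunit, with 0.53 (SE 0.21), Pttg1, securin, which holds back separase, with 0.81 (SE 0.33), and Dtl with 0.56 (SE 0.24). Stmn1 had 389 and 167 CPM in 27pepL, 314 and 127 in 27pepL→18, 86.5 and 134 in IL-27, and 168 and 129 in 27→18 tumors. Pttg1 had 65.7 and 27.2, 72.4 and 34.3, 26.2 and 33.6, and 26.5 and 27.6 CPM in the same order. Ncapg2 had 36.5 and 52.9, 31.6 and 27.3, 23.5 and 23.8, and 30.0 and 23.3 CPM. Stmn1 and Pttg1 were thus high in replicate 1 of both 27pepL groups and not in replicate 2. In the interaction after IL-27, 1 of 103 did, at a background of 3.74%, namely Cks2, a partner of the cyclin-dependent kinases, with a difference of 1.48 (SE 0.65). Cks2 had 95.7 and 192 CPM in 27→18, 59.9 and 117 in IL-27, 103 and 64.4 in IL-18, and 176 and 113 in pMCS tumors.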

How the data were processed

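The values are gene counts deposited by the authors for 12 libraries, whole numbers with no scaling. The authors made stranded poly(A) libraries, checked reads with FastQC 0.11.3, aligned them with HISAT2 and quantified transcripts with StringTie. The sources used here do not give the build, the annotation or the step to counts. All 55450 identifiers were named with GENCODE M21, and 217 entries share a symbol with another. Libraries held 49844915 to 76620862 counts, replicates correlated at r = 0.873 to 0.961 across genes, and intervals cover the spread between libraries, not counting error alone.

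The fit used edgeR 4.0.16 in R 4.3.3 (quasi-likelihood test, TMM scaling, filterByExpr by group, 20417 genes kept, 1 term per group, all 12 libraries sharing 1 estimate of spread, common dispersion 0.343). P-values were adjusted by Benjamini-Hochberg over all genes within a comparison. Fold changes are edgeR's, with 95% intervals from their standard errors. Alternatives used RLE factors, no filter, the compared groups alone, a replicate block, transcript length or tissue covariates, edgeR's exact test, DESeq2 1.42.0, and each library left out. Scripts were tested on simulated data.

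Values in every library are given for representatives of each role and for up to 3 genes per direction past an unadjusted p of 0.05 and a 2-fold change. Other genes were named after their values were seen. The 42 genes, the other lists and the tests were chosen with earlier results of these data known.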

Additional observations from a re-analysis of the deposited data

Results flagged for a closer look

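For 3 genes the libraries with and without IL-18 did not overlap in 2 settings, and the order in 1 setting was opposite to that in the other. Such opposite order was seen in 3.63% of all genes tested after IL-27, with 1 of 42 members, and in 3.31% after 27pepL, with 2 of 42. These counts are near the shares of all genes, so they are not a result about the list. The 3 genes were picked for this order, and none passed an adjusted p in the interaction. For Bub1, the effect of IL-18 after IL-27 minus its effect after pMCS was 0.846 on the log2 scale (SE 0.37), with an unadjusted p of 0.0468 and an adjusted p of 0.948 by edgeR. Both 27→18 libraries (46.1 and 43.5 CPM) lay above both IL-27 libraries (25.8 and 32.4 CPM), and both IL-18 libraries (38.5 and 37.4 CPM) below both pMCS libraries (48.1 and 40.6 CPM). For Mki67, the effect after 27pepL minus that after pMCS was 0.774 (SE 0.493), with an unadjusted p of 0.149 and an adjusted p of 1 by edgeR. Its 27pepL→18 libraries (147 and 116 CPM) lay above the 27pepL libraries (103 and 114 CPM), and its IL-18 libraries (99.8 and 102 CPM) below the pMCS libraries (171 and 114 CPM). For Foxm1 the same difference was -3.42 (SE 1.86), with an unadjusted p of 0.0979 and an adjusted p of 1 by edgeR. Its 27pepL→18 libraries (0.39 and 9.69 CPM) lay below the 27pepL libraries (17.4 and 22.0 CPM), and its IL-18 libraries (10.3 and 12.6 CPM) above the pMCS libraries (1.44 and 6.88 CPM).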

How the results depend on the processing

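With 2 libraries a group, the median 95% interval against pMCS spanned 0.84 on the log2 scale to either side. For a typical gene of the list, a smaller change than that would not pass an unadjusted p of 0.05. The adjusted threshold asks for a larger change still, so changes above 0.84 are not set aside by its empty count. No gene of the list passed an adjusted p of 0.05 under RLE scaling, the compared groups alone, the replicate block, the transcript length trend, the muscle and adipocyte covariates, edgeR's exact test, DESeq2 or any left-out library. Without the filter on low counts, 1 gene passed in IL-27 and 1 in 27pepL tumors against pMCS, 1 in each interaction and 2 in the test of any difference. The gene was Foxm1, with a log2 fold change of 2.42 in IL-27 (adjusted p = 0.0019 by edgeR) and 2.25 in 27pepL tumors (adjusted p = 0.0074), joined by Cdt1 in the test of any difference. The cause was not tested, and 817 and 437 genes in all passed in the first 2 of these, against 0 and 52 with the filter.

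The count past an unadjusted p of 0.05 with a 2-fold change, 0 throughout, was 2 in IL-18, 1 in IL-27, 1 in 27pepL and 1 in 27pepL→18 tumors without the filter. It was 1 in IL-27 tumors with DESeq2 and 1 in 27pepL tumors with the compared groups alone. With the covariates it was 2 in 27→18 tumors, 2 in 27pepL tumors and 2 for 27pepL groups against IL-27 groups. In the interaction after IL-27 it was 3 without the filter and 2 with the covariates, and after 27pepL 1 without the filter, 1 with DESeq2 and 2 with the covariates. With the same covariates the list's median was -0.78 in 27→18 tumors, -0.24 for the groups with IL-18 against those without and 0.45 for 27pepL groups against IL-27 groups, and the cause was not tested.

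The labels tie no replicate number to a shared animal or batch, and the numbers were not taken as pairs. The 15 correlations of same-numbered libraries' deviations between groups ran from -0.28 to 0.34, with 6 above 0.1, among them those between 27pepL, 27pepL→18 and pMCS (0.34, 0.21 and 0.26). Under the replicate block 0 genes passed an adjusted p, the list's median in IL-27 tumors was -0.28, and the 1 gene past an unadjusted p of 0.05 against pMCS and the 1 in the interaction after IL-27 (Bub1 in both) no longer passed it.

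Leaving out 1 library at a time, the count past an unadjusted p of 0.05 with a 2-fold change ran from 0 to 1 in IL-18, 0 to 7 in IL-27, 0 to 2 in 27→18, 0 to 1 in 27pepL and 0 to 2 in 27pepL→18 tumors, and from 0 to 1 in both comparisons of pooled groups, 0 to 6 in the interaction after IL-27 and 0 to 1 in that after 27pepL. The list's median ran from -0.21 to 0.10 in IL-18, -0.62 to -0.0127 in IL-27, -0.19 to 0.10 in 27→18, -0.0816 to 0.11 in 27pepL, -0.21 to 0.0980 in 27pepL→18 tumors, -0.0642 to 0.16 for IL-18 and 0.0725 to 0.33 for 27pepL groups.

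Of 1100 refitted values of 11 single genes, 80 had the other sign, 62 of them with a library left out. None of these 80 passed the adjusted threshold. The 2 values that passed it were those of Foxm1 without the filter, in IL-27 and in 27pepL tumors. The length trend gave Top2a -0.10 and Pcna 0.00282 in IL-18, Ccnb1 0.00586 in 27→18, Cdk1 0.0359 and Ccnb1 -0.0167 in 27pepL, and Cdk1 0.0164 and Foxm1 -0.33 in 27pepL→18 tumors. The covariates gave Top2a -0.0478 and Rrm2 -0.0158 in IL-18, Pcna 0.32, Rrm2 -0.0393, E2f1 -0.37 and Foxm1 -0.68 in 27→18, and Pcna -0.0516 and Rrm2 -0.00686 in 27pepL→18 tumors. Without the filter Cdk1 was 0.00614 and Pcna 0.00212 in 27→18, and Mcm5 0.00259 in 27pepL→18 tumors. The log2 fold changes that took both signs with 1 library left out had these lowest and highest values. For IL-18 against pMCS, Top2a -0.0733 to 0.13, Cdk1 -0.69 to 0.00135, Ccnb1 -0.24 to 0.11, Ccne1 -0.0369 to 0.34, Mcm5 -0.00304 to 0.65, Pcna -0.51 to 0.0221, Rrm2 -0.14 to 0.17, Cdc20 -0.49 to 0.11, E2f1 -0.0208 to 0.21. For IL-27 against pMCS, Top2a -1.01 to 0.00576, Cdk1 -0.97 to 0.0947, Ccne1 -0.25 to 0.16, Mcm5 -0.49 to 0.19, Pcna -0.81 to 0.12, Cdc20 -1.03 to 0.0882, E2f1 -0.39 to 0.00506. For 27→18 against pMCS, Top2a -0.89 to 0.19, Cdk1 -0.0536 to 0.0663, Ccnb1 -0.0987 to 0.052, Ccne1 -0.11 to 0.46, Mcm5 -0.35 to 0.30, Pcna -0.19 to 0.15, Rrm2 -0.000493 to 0.14, Cdc20 -0.34 to 0.21, E2f1 -0.14 to 0.18. For 27pepL against pMCS, Top2a -0.22 to 0.16, Cdk1 -0.31 to 0.19, Ccnb1 -0.18 to 0.23, Ccne1 -0.34 to 0.0477, Mcm5 -0.19 to 0.48, Pcna -0.13 to 0.62, Rrm2 -0.21 to 0.0341, Cdc20 -0.42 to 0.10, E2f1 -0.12 to 0.39. For 27pepL→18 against pMCS, Mki67 -0.35 to 0.20, Top2a -0.19 to 0.0233, Cdk1 -0.35 to 0.21, Ccne1 -0.41 to 0.0785, Mcm5 -0.29 to 0.37, Pcna -0.0833 to 0.25, Rrm2 -0.0257 to 0.18, Cdc20 -0.48 to 0.0299, E2f1 -0.0718 to 0.45, Foxm1 -3.42 to 1.84.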
